A study of Canis lupus with 23 samples.

Results

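The 10 genes described here build or govern the surface of the urothelium, which lines the bladder: the uroplakins UPK1A, UPK1B, UPK2, UPK3A and UPK3B, the transcription factors PPARG, FOXA1, GRHL3 and GATA2, and the surface protein PSCA. They were taken as the probesets whose gene symbol in the array's annotation is one of these 10 names. All 10 names were found, on 14 probesets, among 15115 genes in all. UPK2 and GRHL3 have 3 probesets each and every other member has 1. All 10 are listed as protein coding in the RefSeq table for the dog and wolf genome assembly mCanLup2.hap1, which was used for names only.

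Uroplakins are membrane proteins that pack into rigid plaques on the face of umbrella cells, the outermost cells of the bladder lining, and help to make that lining tight to urine. UPK1A and UPK1B are tetraspanins, small proteins that thread the membrane repeatedly, and each leaves the endoplasmic reticulum paired with a single-pass partner: UPK1A with UPK2, and UPK1B with UPK3A or UPK3B. PPARG, a nuclear receptor best known for driving fat cell formation, and FOXA1, a pioneer factor that opens chromatin, switch on uroplakin genes in cultured human urothelial cells. GRHL3, a grainyhead-like factor of barrier epithelia, is needed for umbrella cells to mature in mice. GATA2 is best known from blood progenitors, mast cells and vessel lining and is also present in urothelium. PSCA is a small protein anchored to the membrane by a lipid and was first described in the prostate.

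The Affymetrix Canine Genome 2.0 array was used to profile RNA of 23 tumors, each from a different pet dog. The groups were 3 transitional cell carcinomas of the bladder (TCC), 7 lymphomas, 5 melanomas and 4 sarcomas, the last joining 2 tumors titled STS with 2 titled Sarcoma. The nasal tumor, the hepatocellular carcinoma (HCC), the tumor labelled HSA (hemangiosarcoma, which arises from the lining of vessels) and the histiocytic sarcoma were single tumors with no replicate, and no test was made on them. All groups were spontaneous tumors of dogs enrolled with untreated disease, and the labels give only the diagnosis, with no treatment, allele or age. The methods describe the TCC cohort as Scottish terriers and a lymphoma cohort as golden retrievers. They describe the sampling of TCC as through a cystoscope or under ultrasound guidance, while other tumors were taken by needle, punch or open biopsy. The labels give no breed, so breed, sampling route and tumor type cannot be told apart.

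Array medians were 82.1 to 103 in TCC and 82.1 to 132 over all tumors, and 21.6% to 23.2% of probesets lay under a signal of 16 in TCC against 19.8% to 27.2% over all tumors. The log2 ratio of the 3' to the 5' GAPDH control probeset, a sign of RNA shortening, was 5.85 to 6.22 in TCC and 5.12 to 9.74 over all tumors. The paper set a minimum RNA integrity score for the tumors it profiled and amplified the RNA before the arrays. The ratio is therefore given only to compare arrays with each other. The deposited signal is a linear MAS5 intensity, turned here to log2(signal + 16), on which a signal of 0 reads 4. No 2 arrays correlated above 0.927, so none looked like a repeat. The mean log2 level of 7 epithelial markers was 11.32 to 11.44 in the 3 TCC, 10.64 in the nasal tumor, 9.95 in HCC and 5.29 to 7.23 in the 16 lymphomas, melanomas and sarcomas. Lymphocyte markers (5 genes) lay at 5.50 to 6.10 in TCC against 9.32 to 11.61 in lymphoma, and melanocyte markers (5 genes) at 4.67 to 5.40 in TCC against 10.89 to 11.48 in melanoma, so the labels of these types matched their markers. Hepatocyte markers (5 genes) stood at 13.68 in HCC, and endothelial markers (8 genes) at 10.05 in HSA and 8.34 to 8.41 in TCC.

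All 10 members were higher in TCC than in the mean of lymphoma, melanoma and sarcoma, by 2.18 to 6.97 on the log2 scale. Tests of genes came from 1 limma fit over 15115 genes with Benjamini-Hochberg adjustment, tests of single probesets from a like fit over all probesets, and each alternative from a fit of its own. A call needed both an adjusted p below 0.05 and a log2 difference of 1 or more in size. In this comparison 4.71% of all genes were called higher, and 396 of the 15115 were called lower. The median difference of the members was 3.93, beside a median of -0.10 over all genes. In 8 of the 10 members, among them all 5 uroplakins, every TCC lay above every one of the other 20 tumors, which 1.93% of all genes did. Against the 16 tumors of the other 3 types alone, the same count was 8 of 10 members, with 3.04% of all genes. In bulk RNA, more cells that carry a transcript and more transcript in each cell cannot be told apart.

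**Figure D1:**
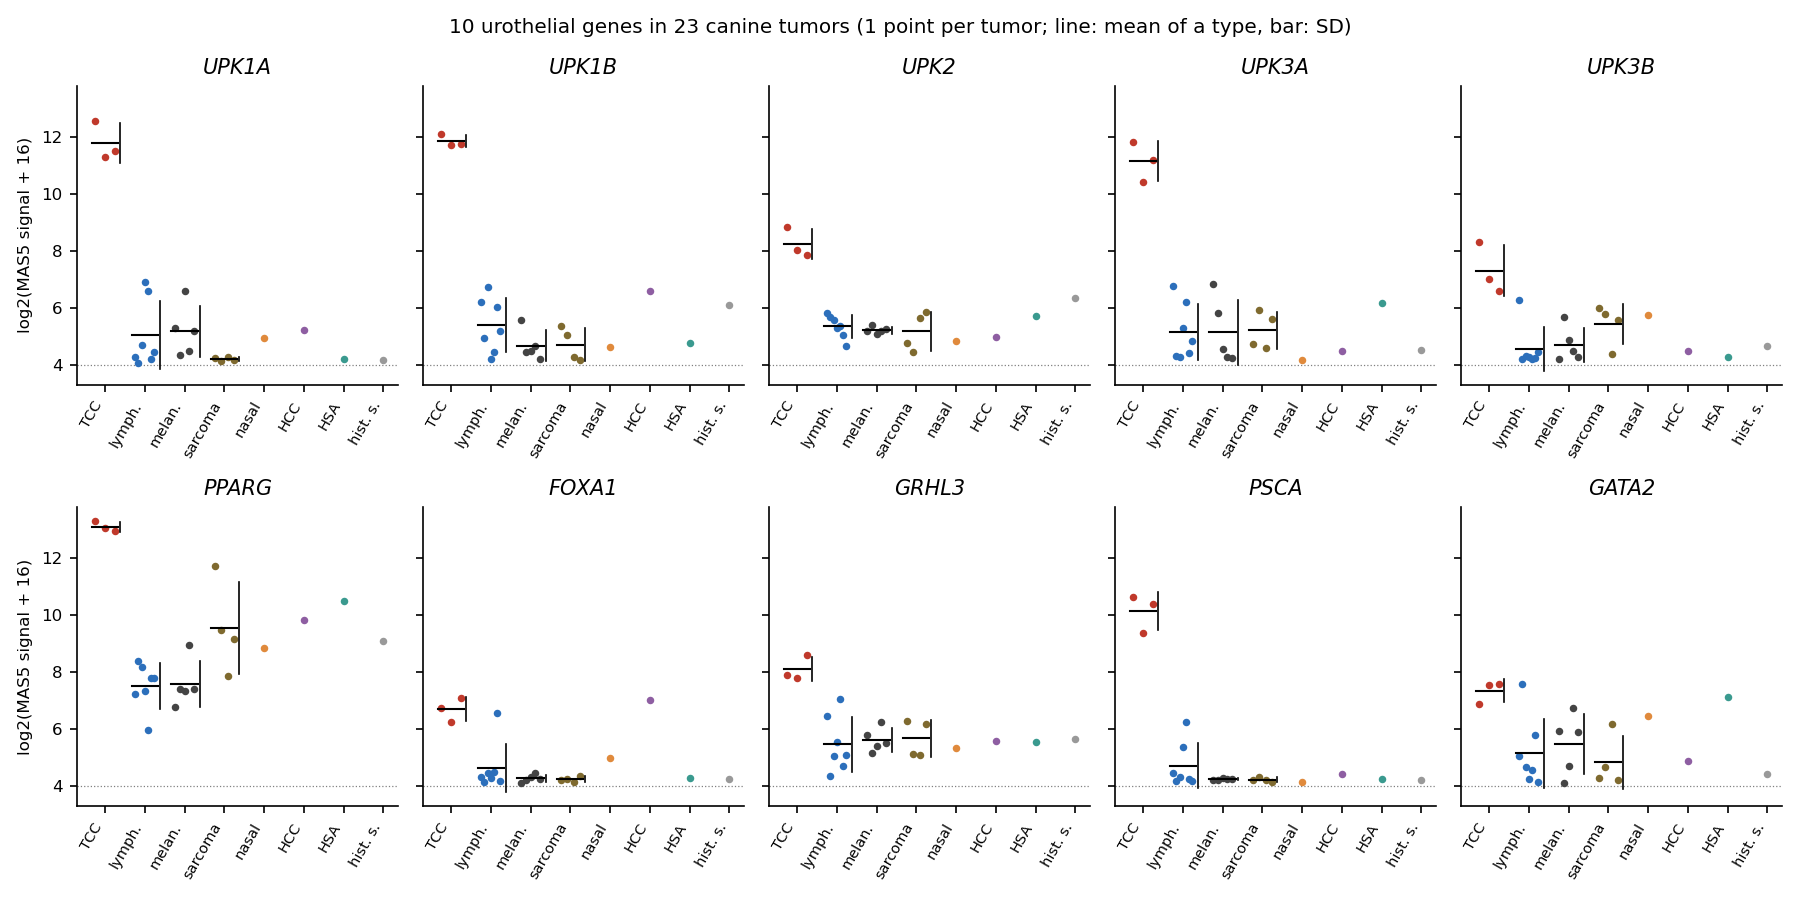
The log2(MAS5 signal + 16) value of each member (y axis) in each of the 23 tumors (1 point each) by tumor type (x axis), with the mean of a type as a horizontal line and its SD as a vertical bar; the dotted line at 4 is a signal of 0. The 3 TCC stand apart from all other tumors for the 5 uroplakins, PPARG, GRHL3 and PSCA, and overlap with 2 other tumors each for FOXA1 and GATA2.

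UPK1A, which pairs with UPK2, had signals of 6019, 2485 and 2834 in TCC 0, TCC 1 and TCC 2, against a highest signal of 102 among the other 20 tumors, in Lymphoma 3. In 14 of those 20 tumors the signal was below 16, and all 4 sarcomas lay between 1.52 and 3.33. The gap between the lowest TCC and the highest other tumor was 4.40 log2 units, which ranks 3 among all genes. The mean was 11.77 ± 0.69 in TCC (SD, n = 3), against 5.03 ± 1.19 in lymphoma (n = 7), 5.18 ± 0.90 in melanoma (n = 5) and 4.20 ± 0.06 in sarcoma (n = 4). The difference from the mean of the other 3 types was 6.97 (SE 0.55, limma adjusted p = 3.78e-08), or 125-fold on the signal + 16 scale.

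UPK1B, the tetraspanin that pairs with the UPK3 proteins, had signals of 4377, 3352 and 3432 in TCC 0, TCC 1 and TCC 2. The highest signal elsewhere was 90.0, in Lymphoma 2, followed by 80.5 in HCC, 57.6 in Lymphoma 0 and 52.8 in the histiocytic sarcoma. This is the widest separation in the data: the lowest TCC stood 4.99 log2 units above the highest other tumor, rank 1 of 15115 genes by that measure. NIPAL1 followed with 4.66, then UPK1A, then MAL, a lipid-raft protein of apical membranes, with 4.25. The TCC values also lay close together, with a mean of 11.86 ± 0.21 (SD, n = 3), and the difference from the mean of the other 3 types was 6.93 (SE 0.46, limma adjusted p = 4.16e-09).

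UPK3A, the single-pass partner of UPK1B, had signals of 3595, 1350.5 and 2324 in TCC 0, TCC 1 and TCC 2. Among the other tumors the highest were 98.9 in Melanoma 0, 92.8 in Lymphoma 0, 57.5 in Lymphoma 4 and 56.1 in HSA, and 12 of 20 lay below 16. The groups did not overlap, with a gap of 3.57 log2 units, rank 9 among all genes. The difference was 5.97 (SE 0.56, limma adjusted p = 3.52e-07).

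UPK3B, a related partner of UPK1B that is also made by mesothelium, had signals of 298, 113 and 80.1 in TCC 0, TCC 1 and TCC 2, against at most 62.2 in the other 20 tumors. That highest value, in Lymphoma 0, left a gap of only 0.30 log2 units to the lowest TCC. STS 0 had 47.6, STS 1 had 38.8, the nasal tumor 37.4, Melanoma 1 had 35.1 and Sarcoma 1 had 31.8, while 14 of the 20 tumors lay below 16. Its TCC values spread more than those of any other member, with a mean of 7.30 ± 0.89 (SD, n = 3), and its difference was 2.40 (SE 0.45, limma adjusted p = 0.00158). The 3 mesothelial markers on the array, WT1, CALB2 and BNC1, averaged 4.23 to 4.95 in TCC and 4.23 to 6.49 in the other 3 types, and none of the 3 was called. UPK3BL2, a related gene chosen after its values were seen, differed by 0.64 (limma adjusted p = 0.594).

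UPK2, the partner of UPK1A, was read by 3 probesets that moved the same way to different extents. The first gave signals of 363, 238 and 295 in TCC 0, TCC 1 and TCC 2, against at most 121 elsewhere (Lymphoma 1). The second gave 212, 154 and 118 in the same tumors, against at most 116 elsewhere (Lymphoma 0), so that its TCC and other tumors all but touched. The third, whose identifier ends in s_at, the mark of a probeset with probes that can match more than 1 transcript, gave 1068, 385 and 284, against at most 56.0 elsewhere (HSA). Their log2 differences were 2.48 (SE 0.56), 2.13 (SE 0.56) and 4.34 (SE 0.47), with limma adjusted p = 0.00641, 0.0211 and 1.37e-06 over the 42924 probesets. The second was not called with a pseudocount of 1 (adjusted p = 0.103). Averaged over the 3, UPK2 was 8.23 ± 0.52 in TCC (SD, n = 3) and differed by 2.98 (SE 0.34, limma adjusted p = 4.81e-06). The highest other tumor by this average was the histiocytic sarcoma at 6.33, above all 16 lymphomas, melanomas and sarcomas and 1.53 log2 units under the lowest TCC.

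Across the 3 TCC, TCC 0 was the highest for all 5 uroplakins, and for PPARG and PSCA as well. TCC 1 was the lowest for 6 of the 10 members and for 3 of the 5 uroplakins. The range over the 3 TCC was 0.38 log2 units for UPK1B and 0.35 for PPARG, and 1.71 for UPK3B, 1.40 for UPK3A, 1.27 for UPK1A and 1.27 for PSCA. The mean of the epithelial markers differed little among them, at 11.34 in TCC 0, 11.44 in TCC 1 and 11.32 in TCC 2, and that of 7 smooth muscle markers was 7.08, 6.70 and 8.48 in the same tumors. With 3 tumors no test was made among them.

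PPARG had signals of 10076, 8569 and 7903 in TCC 0, TCC 1 and TCC 2. Unlike the uroplakins it was measured well above 16 in every tumor, at 46.2 to 323 in lymphoma (median 206), 94.6 to 482 in melanoma (median 153), 218 to 3416 in sarcoma (median 627), 447 in the nasal tumor, 896 in HCC, 1438 in HSA and 533 in the histiocytic sarcoma. The TCC values did not overlap with any of them, and the gap to the highest, STS 0, was 1.21 log2 units. The mean was 13.11 ± 0.18 in TCC (SD, n = 3), and the difference from the mean of the other 3 types was 4.88 (SE 0.55, limma adjusted p = 4.68e-06), about 29.5-fold on the signal + 16 scale. Its probeset is also of the s_at kind.

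PPARG was the only member called between types other than TCC: it was higher in sarcoma than in lymphoma by 2.03 (SE 0.55, limma adjusted p = 0.0170), where 6.85% of all genes were called higher and 4.10% lower. That call rested on STS 0: without it the difference was 1.30 and the adjusted p 0.0909. Melanoma minus sarcoma was -1.98 for PPARG (adjusted p = 0.113) and was called only without Sarcoma 0 (-2.54, adjusted p = 0.0272), with 0.609% of all genes called higher and 0.569% lower. Melanoma minus lymphoma called no member, with 5.86% of all genes higher and 3.82% lower, and the members' differences there lay between -0.72 for UPK1B and 0.33 for GATA2. In STS 0, the tumor with the highest PPARG outside TCC, the mean of 7 adipocyte markers was 6.20, within the 5.76 to 8.03 of the 4 sarcomas, with LPL at 11.91, ADIPOQ at 5.49, PLIN1 at 4.99 and FABP4 at 4.56. The adipocyte markers were highest in Sarcoma 1 (8.03) and Lymphoma 5 (7.99), where PPARG had signals of 552 and 207. None of the 7 was called in TCC, where their mean was 5.67 to 6.24.

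Of 18 genes listed as partners or targets of PPARG, 3 were higher in TCC, 0 lower and 15 not called, beside 4.71% of all genes called higher. The list's median difference was 0.04, against -0.10 for all genes. CPT1A, which brings fatty acids into mitochondria, was higher by 3.34 (SE 0.34, limma adjusted p = 8.27e-07), the coactivator PPARGC1A by 2.99 (adjusted p = 0.00637) and RXRA, the receptor that PPARG pairs with on DNA, by 1.34 (adjusted p = 0.0278). Of the other RXR genes, RXRB differed by -0.57 and RXRG by -1.67, neither called. The fat cell targets FABP4 (-0.31), ADIPOQ (-0.27), CD36 (-0.98) and LPL (-1.22) were not called. Without TCC 0 the count of 3 fell to 1, and without TCC 1 to 2.

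FOXA1 was dim in most tumors, with signals of 92.7, 59.9 and 122 in TCC 0, TCC 1 and TCC 2 and a median of 3.76 in the other 20. It overlapped with 2 of them, HCC at 114 and Lymphoma 5 at 78.2. All 5 melanomas lay between 1.54 and 6.33 and all 4 sarcomas between 2.05 and 4.87, so those types were separate from TCC. The nasal tumor had 16.3. The FOXA1 probeset is also of the s_at kind. The difference from the mean of the other 3 types was 2.31 (SE 0.37, limma adjusted p = 2.63e-04), a value that was 1.13 with a pseudocount of 64 and 4.15 with a pseudocount of 1, called in both. FOXA2, a relative known from liver and other endoderm, had a difference of 1.56 (adjusted p = 0.0503) with HCC at 7.96, and FOXA3 had 0.21 (adjusted p = 0.885).

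GRHL3 was read by 3 probesets that disagreed. The first gave signals of 627, 354 and 699 in TCC 0, TCC 1 and TCC 2, against at most 89.9 elsewhere (STS 0). The second, of the s_at kind, gave 997, 613 and 1639.9 in TCC, against at most 254 elsewhere (Lymphoma 4). Neither overlapped with any of the other 20 tumors. The third did not separate the tumors, with 5.13, 32.2 and 33.8 in TCC and 2.10 to 113 elsewhere. Their log2 differences were 3.93 (SE 0.54), 3.62 (SE 0.52) and -0.02 (SE 0.63), with limma adjusted p = 3.79e-05, 6.01e-05 and 0.994. Averaged over the 3, GRHL3 was 8.11 ± 0.44 in TCC (SD, n = 3), against 5.48 ± 0.96 in lymphoma, 5.63 ± 0.42 in melanoma and 5.68 ± 0.65 in sarcoma, a difference of 2.51 (SE 0.46, limma adjusted p = 0.00121) that includes the probeset that did not move. In all, 13 of the 14 member probesets were called higher in TCC, beside 3.69% of the 42924 probesets.

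**Figure D2:**
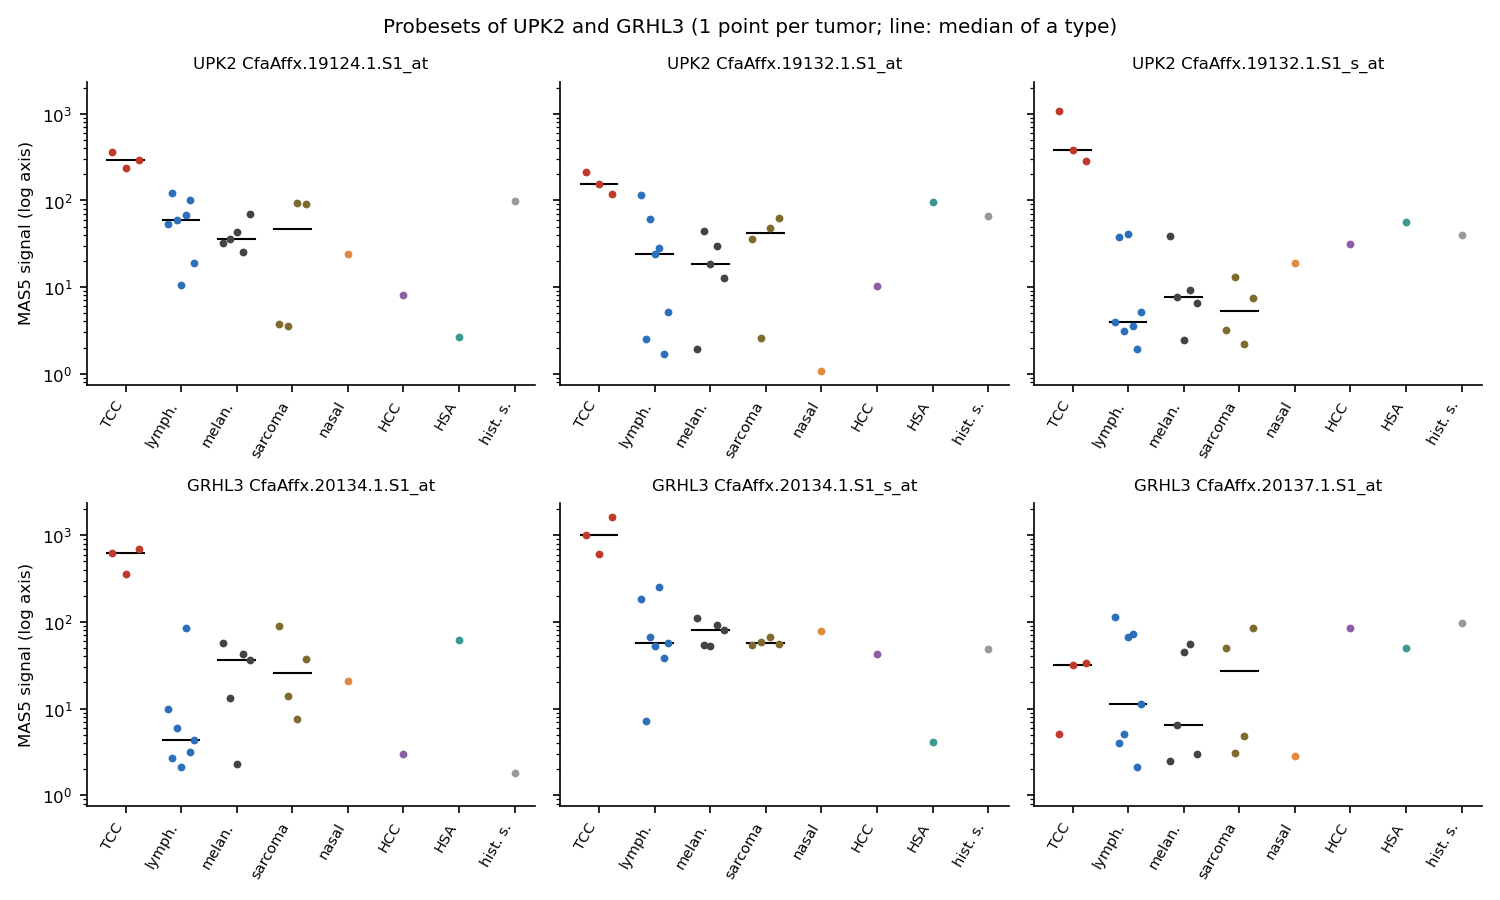
MAS5 signal on a log axis (y axis) of the 3 probesets of UPK2 (top) and the 3 of GRHL3 (bottom) in each of the 23 tumors by type (x axis), with the median of a type as a line. The first 2 GRHL3 probesets separate TCC (354 to 1639.9) from all other tumors (at most 254), and the last does not (5.13 to 33.8 in TCC).

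GATA2 had signals of 101, 174 and 176 in TCC 0, TCC 1 and TCC 2. Lymphoma 1 reached 176 and HSA 124, so that 2 of the other 20 tumors lay at or above the lowest TCC; Melanoma 3 followed with 90.6, the nasal tumor with 71.5 and Sarcoma 0 with 56.3. The mean was 7.34 ± 0.41 in TCC (SD, n = 3), against 5.16 ± 1.20 in lymphoma, 5.49 ± 1.05 in melanoma and 4.84 ± 0.92 in sarcoma. The difference was 2.18 (SE 0.61, limma adjusted p = 0.0280), and it is the least secure of the 10: it passed the threshold in none of the fits that left out TCC 0, TCC 1 or TCC 2 (2.42, 2.07 and 2.06, adjusted p = 0.0714, 0.142 and 0.134), nor with a pseudocount of 1 (adjusted p = 0.0742), the title number as a block (0.0879) or all 23 tumors as 2 groups (0.0695).

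KIT, the stem cell factor receptor of mast cells and melanocytes, was at 6.49 to 6.99 in TCC and at 11.33 in Lymphoma 1, the highest of all 23 tumors. The mast cell receptor subunit MS4A2 was at 5.15 to 6.22 in TCC and at 10.29 in Lymphoma 1, again the highest. The other mast cell markers were mixed in Lymphoma 1, with FCER1A at 7.98, HDC at 6.14, GATA1 at 5.58, HPGDS at 5.06 and CPA3 at 4.15. CPA3 was at 6.59 to 6.98 in TCC, 4.23 in HSA and 10.91 in Sarcoma 0. The mean of 7 mast cell markers was 5.55 to 5.83 in TCC, and 7.26 in Sarcoma 0, 7.22 in Lymphoma 1 and 6.93 in HSA, while the other 6 lymphomas lay at 5.23 to 5.82. The mean of the 8 endothelial markers was 8.34 to 8.41 in TCC and 10.05 in HSA, against 7.27 to 8.07 in lymphoma, 7.17 to 8.19 in melanoma and 7.01 to 7.85 in sarcoma, so that all 3 TCC lay above the 16 tumors of those types. Of these 8 markers, VWF was higher in TCC by 1.23 (limma adjusted p = 0.0183) and TIE1 by 1.15 (adjusted p = 0.0281), with 6 not called. Of all genes, 4.71% were called higher. The count of 2 endothelial markers was 1 without TCC 0 and 0 without TCC 1 or TCC 2. None of the 7 mast cell markers was called in TCC. The part of mast cells or vessels in the GATA2 signal of TCC or of the other tumors was not tested.

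**Figure D3:**
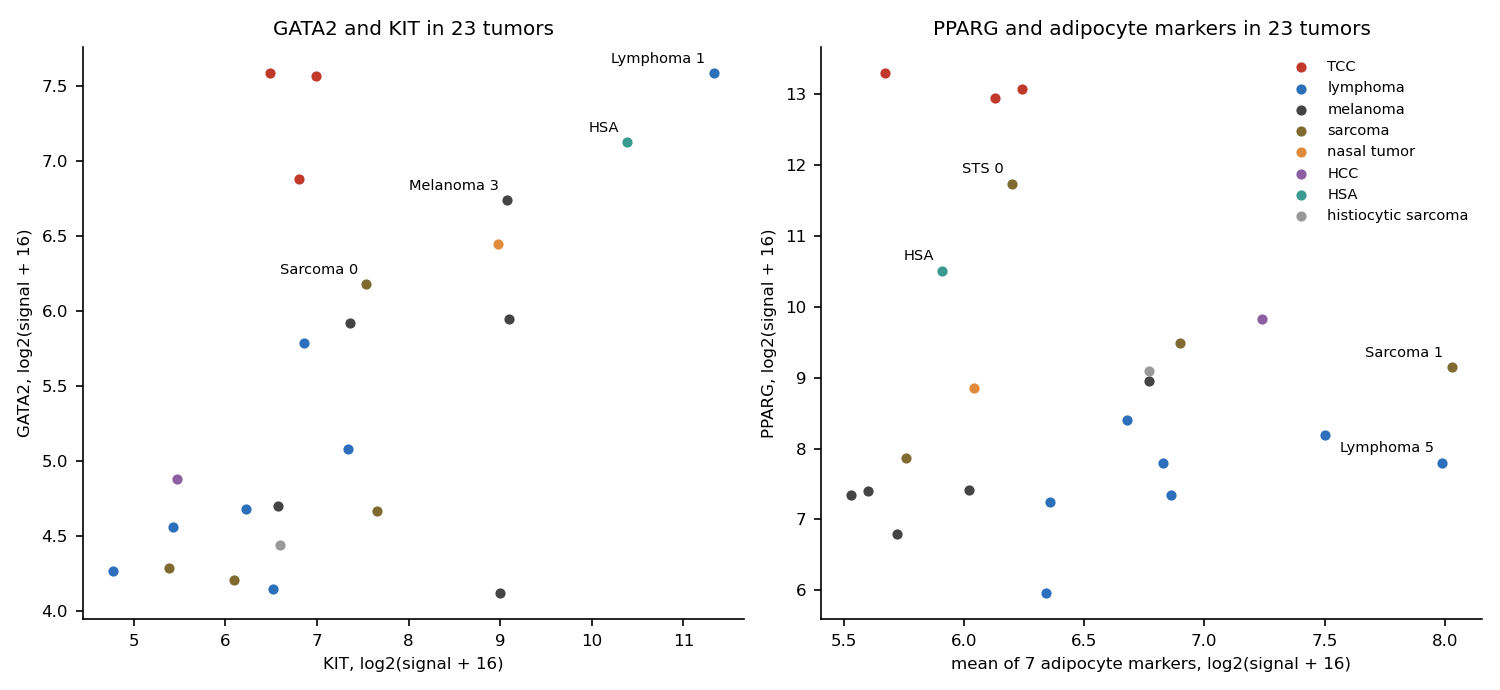
GATA2 against KIT (left) and PPARG against the mean of 7 adipocyte markers (right), all as log2(signal + 16), 1 point per tumor coloured by type. The 3 TCC have GATA2 of 6.88 to 7.59 at KIT of 6.49 to 6.99, whereas Lymphoma 1 and HSA have GATA2 of 7.59 and 7.13 at KIT of 11.33 and 10.39; STS 0 has PPARG of 11.74 with adipocyte markers at 6.20.

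PSCA had signals of 1590.2, 649 and 1341 in TCC 0, TCC 1 and TCC 2, against a median of 3.01 and at most 61.0 in the other 20 tumors. In 18 of them it lay below 16, with all 5 melanomas between 2.63 and 3.58. The 2 others were Lymphoma 4 (61.0) and Lymphoma 3 (25.2), which were also 2 of the 3 highest tumors outside TCC for UPK1A (80.7 and 102). The mean of the epithelial markers was 7.20 in Lymphoma 4 and 6.44 in Lymphoma 3, within the 5.45 to 7.22 of the 7 lymphomas. The PSCA difference was 5.74 (SE 0.38, limma adjusted p = 4.16e-09), and the gap to the highest other tumor, 3.11 log2 units, ranks 12 among all genes. The prostate markers KLK2, ACP3 and HOXB13 averaged 5.56 to 6.29 in TCC, against 5.06 to 6.47 in the other 3 types, and none was called. Of 6 other genes of the LY6 family to which PSCA belongs, LY6D was higher by 5.90 (SE 0.43, limma adjusted p = 1.31e-08) and the other 5 were not called (-0.86 to 0.61). Of all genes, 4.71% were called higher.

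Each type was also set against TCC in turn, the 3 comparisons sharing the same TCC. Against lymphoma 10 of 10 were called higher, beside 6.88% of all genes. Against melanoma 9 were called, beside 3.69%, the exception being GATA2 with 1.86 (95% interval 0.40 to 3.31, adjusted p = 0.138). Against sarcoma 10 were called, beside 3.23%, with UPK3B (1.87, adjusted p = 0.0469) and GATA2 (2.51, adjusted p = 0.0451) close to the threshold. Those 2 calls depended on which tumors were included. For UPK3B against sarcoma, the call ended in 15 of 19 fits that left out 1 tumor, at differences of 1.37 to 2.01 and adjusted p of 0.0513 to 0.256; where the tumor left out was a lymphoma or melanoma the difference was still 1.87. The call was kept only without TCC 2, Lymphoma 0, Melanoma 1 or STS 0. For GATA2 against sarcoma it ended in 12 of 19, at differences of 2.30 to 2.74 and adjusted p of 0.0503 to 0.145, and was kept only without Lymphoma 1, 3 or 6, Melanoma 1, 2 or 3 or Sarcoma 0. For GATA2 against lymphoma it ended in 7 of 19, at differences of 2.02 to 2.42 and adjusted p of 0.0519 to 0.121, those without any 1 of the TCC or without Lymphoma 2, 3, 4 or 6, and GRHL3 against sarcoma was not called without TCC 2 (2.18, adjusted p = 0.0635).

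**Figure D4:**
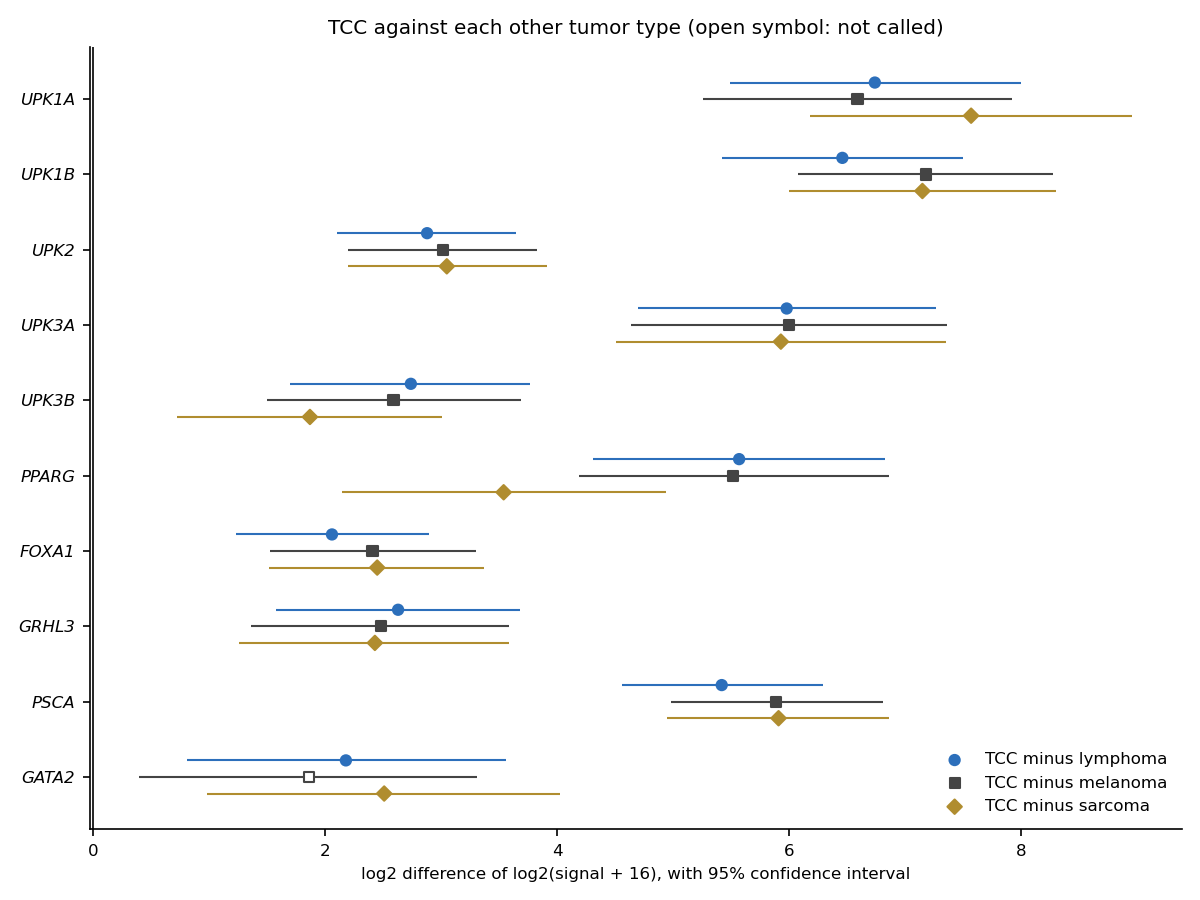
The log2 difference with its 95% confidence interval (x axis) of each member (y axis) between TCC and lymphoma, melanoma and sarcoma, from 1 limma fit; filled symbols were called and open ones were not. UPK1A, UPK1B, UPK3A and PSCA lie between 5.42 and 7.57 against every type, PPARG is nearer to sarcoma (3.54) than to lymphoma (5.57) or melanoma (5.52), and GATA2 against melanoma is the only open symbol.

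Below TCC, no member had an order of types that its tumors upheld. Lymphoma, melanoma and sarcoma overlapped with their neighbours in the order of means for all 10 members. UPK1A ran melanoma 5.18, lymphoma 5.03 and sarcoma 4.20, UPK1B lymphoma 5.39, sarcoma 4.71 and melanoma 4.68, and UPK3B sarcoma 5.43, melanoma 4.71 and lymphoma 4.56. TCC itself was first for all 10, and overlapped with the next type, lymphoma, only for FOXA1 and, through Lymphoma 1, with lymphoma for GATA2, whose next type by mean was melanoma.

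The other 2 carcinomas did not share the uroplakin pattern. The nasal tumor exceeded all 16 lymphomas, melanomas and sarcomas for 6 of 7 epithelial markers and 8 of 18 luminal bladder genes, beside 7.23% of all genes, but for 0 of the 10 members. Its signals were 14.6 for UPK1A, 8.53 for UPK1B, 2.14 for UPK3A and 2.05 for PSCA. HCC exceeded the 16 for 5 of 7 epithelial markers and 7 of 18 luminal genes, beside 13.8% of all genes, and for 1 member, FOXA1 (114), a factor that is also known from liver. Its UPK1B signal of 80.5 was the second highest outside TCC, with UPK1A at 21.7 and UPK3A at 6.29. KRT8, which like KRT18 is counted in both the epithelial and the luminal list, was at 12.18 to 13.09 in TCC, 13.09 in the nasal tumor and 11.99 in HCC. No difference between the carcinomas was tested, since 2 of the 3 kinds had 1 tumor each.

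Of 18 luminal genes, those that mark the inner, differentiated layers of bladder lining in human bladder cancer, 12 were higher in TCC, 0 lower and 6 not called, with a median of 3.18. In the same comparison 4.71% of all genes were called higher and 396 of 15115 lower. The keratins of simple epithelium KRT8, KRT18 and KRT7 were higher by 6.89, 6.78 and 6.25 (limma adjusted p = 8.45e-08, 3.21e-07 and 3.21e-07). SNX31, a sorting nexin that binds uroplakins in mice, was higher by 6.25, GATA3 by 5.16 (SE 1.08, adjusted p = 0.00384) and KLF5 by 4.91. GATA3 was at 12.02 to 12.75 in TCC, a level that Lymphoma 6 (12.74) and Lymphoma 3 (12.26) reached and Lymphoma 4 (11.72) came near. Without Lymphoma 6 the difference was 5.33 (adjusted p = 0.00177). KRT20, the keratin of umbrella cells, was not called, at 4.73 to 6.01 in TCC against 4.15 to 7.47 in the other 3 types, and neither was FGFR3 (0.84, adjusted p = 0.479). Of 18 listed basal genes, 12 could be read under their symbol. KRT5, KRT14, KRT6A, KRT6B, KRT6C and DSC3 could not, so these basal keratins were not measured here. Of the 12, 2 were higher, EGFR by 2.90 and TP63 by 2.44, and 1 was lower, CD44 by -1.81. The other 9 were not called, and the median was 0.73. The count of 2 was 1 without TCC 0 or TCC 1 and 4 without Sarcoma 0. Against lymphoma alone 4 basal genes were higher and 1 lower, and against melanoma and sarcoma 1 was higher and 1 lower each.

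Of 10 genes that carry uroplakins to the surface or ready them for it, 6 were higher, 0 lower and 4 not called, with a median of 1.99. Of all genes, 4.71% were called higher. MAL was higher by 7.66 (SE 0.58, limma adjusted p = 2.11e-08), at 13.02 to 13.30 in TCC and at most 8.77 in any other tumor (HSA). RAB27B, a small GTPase of the vesicles that bring plaques to the surface, was higher by 6.50, with SNX31 at 6.25, SYTL2, a RAB27 effector, at 3.50, the motor MYO5B at 2.63 and RAB11A at 1.36. In 4 of the 10 genes every TCC lay above the other 20 tumors, beside 1.93% of all genes. MYO5B was at 8.58 to 9.08 in TCC and 9.33 in HCC. SYTL2 was at 9.31 to 10.67 in TCC and 10.03 in Lymphoma 4. RAB27B was at 12.12 to 13.04 in TCC and 10.28 in the nasal tumor. FURIN, the protease that cleaves pro-UPK2, had a difference of 0.43 (adjusted p = 0.653).

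Other genes of the members' families were read in the same way. Of 27 other tetraspanins, 6 were higher, led by TSPAN8 (3.95), TSPAN1 (2.42) and TSPAN15 (2.38), and 2 were lower, CD53 (-2.60) and CD37 (-1.71), both proteins of white blood cells, with 19 not called and a median of 0.37. The count of 6 was 3, 2 and 0 without TCC 0, TCC 1 and TCC 2, and the count of 2 was 1 without TCC 1 or TCC 2. TSPAN8 was at 8.56 to 12.54 in TCC and 12.87 in the nasal tumor. TSPAN13, also called higher, was at 9.69 to 11.05 in TCC and 11.50 in the nasal tumor. For 1 of the 27 every TCC lay above the other 20 tumors, beside 1.93% of all genes. More tetraspanins were called against lymphoma than against melanoma or sarcoma. Against lymphoma alone 10 were higher and 3 lower, beside 6.88% of all genes higher. Against melanoma 2 were higher and 0 lower, beside 3.69%, and against sarcoma 2 and 0, beside 3.23%. Of 12 other genes of the GATA, FOXA and GRHL families, 4 were higher, 0 lower and 8 not called, with a median of 0.30. The 4 were GATA3 by 5.16, GRHL2 by 3.62, GRHL1 by 2.78 and TFCP2L1 by 2.36. The counts of both lists stand beside 4.71% of all genes called higher and 396 of 15115 called lower. GRHL1 was at 8.28 to 8.60 in TCC and 8.36 in the nasal tumor, and GRHL2 at 9.04 to 9.44 in TCC and 8.61 in the nasal tumor.

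**Figure D5:**
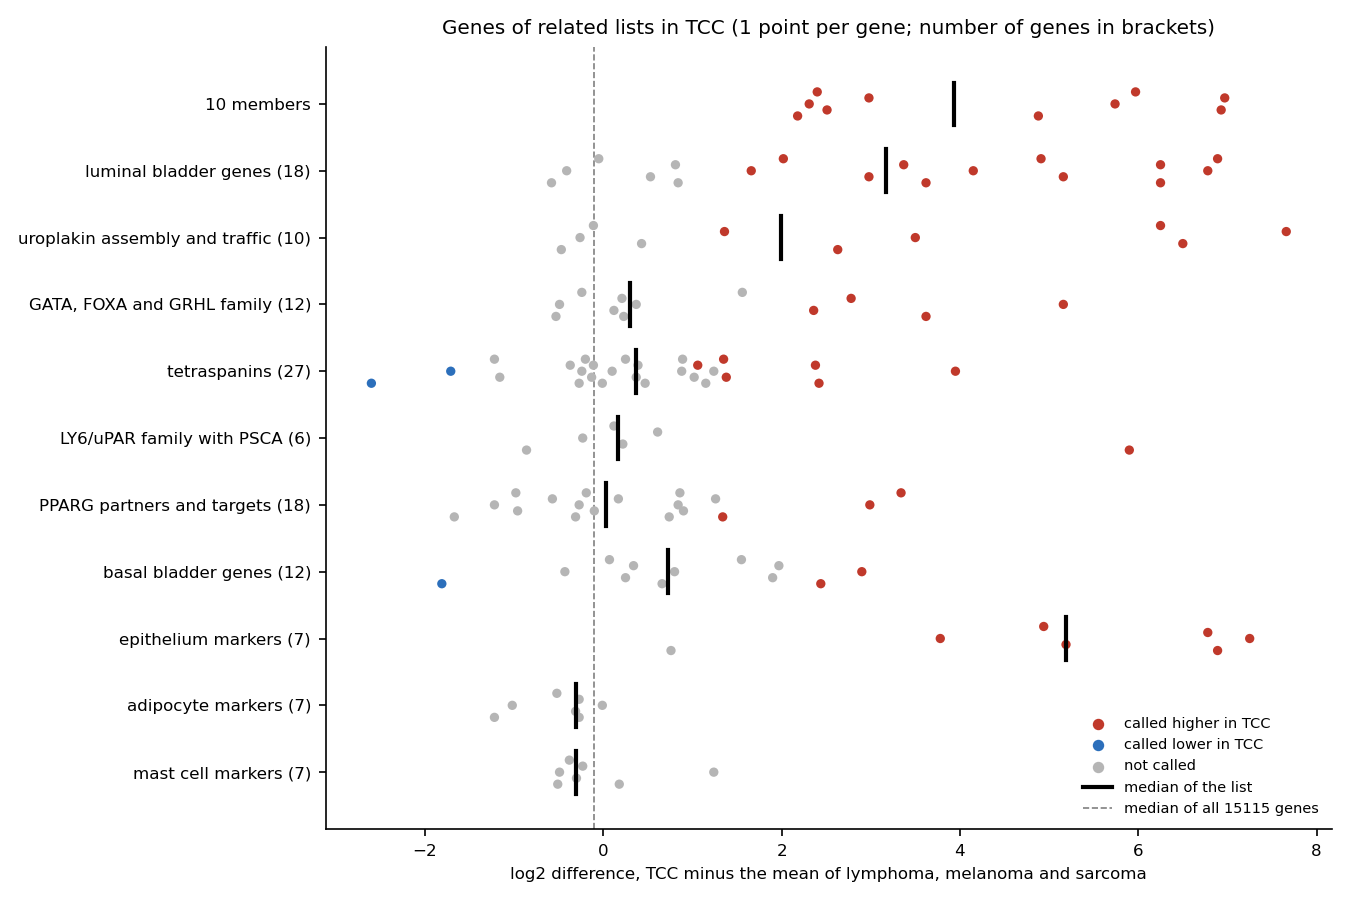
Log2 difference between TCC and the mean of lymphoma, melanoma and sarcoma (x axis) for each gene of the lists (y axis, 1 point per gene), coloured by its call, with the median of each list as a bar and the median of all 15115 genes (-0.10) as a dashed line. The 10 members (median 3.93), the luminal genes (3.18) and the epithelial markers (5.19) lie to the right, and the PPARG, adipocyte and mast cell lists lie around the dashed line.

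As a description of likeness over the 23 tumors, which mostly sets TCC against the rest, the genes closest to the mean of the 5 uroplakins among 11624 candidates were TMPRSS2, a serine protease of epithelial surfaces (Pearson r = 0.95), BMP3, IGSF5, LY6D and TMEM45B (0.93 each), and GRB7, TTC22 and the mucin MUC1 (0.92 each). TMPRSS2 was at 10.77, 9.68 and 9.94 in TCC 0, TCC 1 and TCC 2. Over the same tumors the 10 pairs of uroplakins had r of 0.68 to 0.89. Over the 20 tumors that are not TCC, where most uroplakin signals are near 0, those 10 pairs had r of -0.32 to 0.26, and the pairs of all members with r over 0.5 were 2 of 45: UPK1A with PSCA (0.70) and GRHL3 with PSCA (0.51), where PSCA was above 16 in 2 tumors, Lymphoma 3 and Lymphoma 4.

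Over the same 20 tumors, the genes closest to PPARG, whose signal was above 16 in all of them, were ARHGAP29 (r = 0.84), FN3K (0.81) and the annexin ANXA4 (0.78), and ARHGAP29 was at 8.00 to 9.08 in TCC and 9.35 in STS 0. Those closest to GATA2, whose signal was below 16 in 11 of the 20, were KIT (0.79), ESAM, a junction protein of vessel lining (0.76), and BCL2L15 (0.73). These are the best of 11507 candidates. The best r over the same tumors was also 0.79 for UPK1A, UPK1B, UPK2 and UPK3B, and 0.68 for UPK3A and GRHL3. The 0.79 of KIT with GATA2 therefore does not stand out. Genes are named only for PPARG and GATA2. FOXA1 and PSCA were below 16 in 17 and 18 of the 20 tumors.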

How the data were processed

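Tumor RNA, 1 array per dog, was amplified with the NuGEN Ovation Pico WTA system and read on the Affymetrix Canine Genome 2.0 array. The deposited values are linear intensity signals that the authors made with MAS5, which summarises each probeset and scales each array (trimmed mean 500.1 on every array here). Its version was not given in the sources used. Of 42924 probesets, 29254 have 1 gene symbol in the platform annotation, 439 several and 13231 none; probesets with 1 symbol were averaged per gene as log2(signal + 16). No filter on dim genes was applied; 8 of the 10 members (not UPK3B and FOXA1) and 9972 of 15115 genes would pass one that asks for a level over the overall median in 3 of 23 tumors. MAS5 detection calls were not used here, so low signals have no stated background limit. The number of arrays limits the precision.

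TCC, lymphoma, melanoma and sarcoma (19 tumors) were fitted with 1 mean per type in limma 3.58.1 (R 4.3.3; eBayes, trended prior variance with 5.50 degrees of freedom), two-sided, with Benjamini-Hochberg adjustment over all genes or all probesets. The comparisons with TCC share the same 3 TCC. Every tumor came from a different dog, so errors are spreads between dogs. The steps were tested on simulated data. Alternatives were pseudocounts of 1 and 64, quantile normalization, the dim-gene filter, the brightest probeset, no variance trend, the title number as a block, all 23 tumors as 2 groups, and leaving out each tumor.

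The members, gene lists, markers and tests were chosen with earlier results of these data known, and lists are described by counts and medians only. Lists share some genes, so their counts are not separate evidence. KRT8 and KRT18 are epithelial and luminal, GATA3 and GRHL2 are luminal and in the families list, and SNX31 is luminal and in the traffic list. ADIPOQ, FABP4 and LPL are in the PPARG and adipocyte lists. Named are all members, up to 6 called genes a list, list genes whose role bears on a member, marker genes, and by Pearson correlation the 3 closest genes to a member (printed for PPARG and GATA2) and the 8 closest to the mean of the uroplakins. Sequences and promoter motifs were not analysed here.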

Additional observations from a re-analysis of the deposited data

Results flagged for a closer look

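In 30 groups (10 members in lymphoma, melanoma and sarcoma), 2 tumors stood far from the others of their type by a Dixon ratio. Chance alone flags about 1 in 20 groups where values spread normally. That rate may not hold here, since the other lymphomas lay near the floor of 4 for both genes. They were at 4.20 to 4.44 for UPK3B and 4.15 to 4.49 for FOXA1. UPK3B was at 6.29 in Lymphoma 0, where the next lymphoma was at 4.44 and the 3 TCC were at 6.59 to 8.30. FOXA1 was at 6.56 in Lymphoma 5, where the next lymphoma was at 4.49 and the 3 TCC were at 6.25 to 7.10. The mean of the epithelial markers was 5.48 in Lymphoma 0 and 5.45 in Lymphoma 5, the 2 lowest of the 7 lymphomas.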

How the results depend on the processing

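Of the 10 members, 9 stayed called in TCC against the mean of the other 3 types under every alternative in which they were tested. The dim-gene filter left UPK3B and FOXA1 untested. It asks for 3 tumors, the size of the TCC group, so a gene can pass it through TCC alone. UPK1A, UPK1B, UPK2, UPK3A and PSCA did so, with at most 6.89 outside TCC, under the overall median of 7.03. For these members the filter is no separate support. GATA2 lost its call with a pseudocount of 1, the block, all 23 tumors as 2 groups, and without any 1 of the TCC. The members called numbered 8 to 10 under the alternatives and 9 or 10 with a tumor left out. With all 23 tumors as 2 groups, 426 genes were called higher and 69 lower, in place of 712 and 396; with 1 tumor left out these counts were 444 to 724 and 134 to 445 (higher: 444 without TCC 0, 458 without TCC 2; lower: 184, 134 and 210 without TCC 0, TCC 1 and TCC 2). The share of calls that were higher was 64.3%, and 86.1% with 2 groups. The cause was not tested.

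The title number does not pair dogs: deviations of same-numbered tumors of TCC, lymphoma and melanoma correlated at -0.03 to 0.06 (11 pairs). With it as a replicate block, 608 genes were called higher and 278 lower, and 0 members, in place of 1, between sarcoma and lymphoma; UPK3B (adjusted p = 0.0672) and GATA2 (0.0973) lost their calls against sarcoma and GATA2 (0.140) against lymphoma. With a tumor left out, members called were 0 to 1 in sarcoma minus lymphoma and 0 to 1 in melanoma minus sarcoma. The third GRHL3 probeset was at 0.28 with a pseudocount of 1 (adjusted p = 0.946), in place of -0.02. With that pseudocount GRHL3 was not called against melanoma (adjusted p = 0.0507) or sarcoma (0.0810), nor UPK3B against sarcoma (0.191), nor GATA2 against lymphoma (0.0762) or sarcoma (0.101). UPK3B against sarcoma was also not called in the fit of the brightest probesets (0.0568).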
